A study of Mus musculus with 12 samples.

Results

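Liver RNA-seq libraries from 3 WT mice and 3 mice labelled *Gna12* KO, all given acetaminophen (APAP), were compared gene by gene, so that 6 of the 12 livers of the series entered the comparison and the 6 livers given vehicle served as background. All were male C57BL/6 mice, 10 to 12 weeks old by the labels, fasted overnight before a single intraperitoneal injection of APAP at 300 mg/kg or of vehicle, and the livers were taken at 6 h. The KO mice were compared with age-matched WT littermates, and in whole liver a difference between the labels is not tied to one cell type. The question was how the liver transcriptome of injured mice differs with the genotype label, and it was read here through 27 lists of known genes: 12 lists of hepatocyte genes (205 genes), 10 lists of immune genes (168 genes) and 5 lists of other cell types of the liver. The main values are given with and without WT APAP replicate 1, a liver that stood apart from the others.

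APAP is harmless to the liver at low doses, when hepatocytes couple it to glucuronic acid or sulfate. After an overdose the cytochromes P450 of the pericentral hepatocytes, mainly CYP2E1, turn it into a reactive quinone imine that uses up glutathione and binds mitochondrial proteins. The dying hepatocytes release signals that activate Kupffer cells and draw neutrophils and monocytes from the blood, while the surviving hepatocytes make acute phase proteins. *Gna12* encodes Gα12, a G protein subunit that passes signals from cell surface receptors into the cell.

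The 6 APAP libraries held 50422393 to 69566079 reads counted on genes, and 16174 of 45777 genes passed the filter on low counts. Values below are CPM (reads per 1000000 reads of the library) after TMM scaling over all 12 livers, given in the order of replicates 1, 2 and 3. *Gna12* itself (gene ID 14673, chromosome 5 from 140759944 to 140830431 of GRCm38) was at 23.3, 58.8 and 50.5 CPM in the WT livers and at 43.3, 48.1 and 46.6 CPM in the livers labelled KO, a log2 fold change, WT over KO label, of -0.05 (SE 0.30). Without WT APAP replicate 1 both WT livers lay above the livers labelled KO, with a log2 fold change of 0.24 (SE 0.14, unadjusted p-value of 0.121), and with vehicle the labels overlapped (66.7, 34.8 and 63.4 and 67.2, 66.7 and 54.7 CPM). In no liver labelled KO was the gene near 0, and which part of it was deleted was not analysed here. The livers are therefore named by their labels throughout. The hepatocyte genes *Alb* (albumin) and *Hnf4a* (a hepatocyte transcription factor) were at 53935 to 99417 and 577 to 965 CPM in the 6 livers. WT APAP replicate 1 stood apart from the other 5: hemoglobin genes took 1.29% of its reads against 0.0207 to 0.0619% in the other 11 livers. Its TMM factor was the lowest (0.762 against 0.890 to 1.14). Its mitochondrial share was the highest of the 12 (9.67%), but KO vehicle replicate 3 came close (9.63%). Long transcripts were also under-represented in WT APAP replicate 1. In the 25% of tested genes with the shortest annotated transcripts its log2 level exceeded the mean of the other 5 APAP livers by a median of 0.29, and in the 25% with the longest it was -0.30, whereas in the other 5 livers these medians lay between -0.11 and -0.02 for the shortest and between 0.00 and 0.14 for the longest. What set this liver apart was not tested.

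Hardly any gene was called between the genotype labels after APAP. In edgeR's quasi-likelihood test (Benjamini-Hochberg adjusted over the whole table), WT livers had 2 genes called higher and 3 called lower (0.0309% of the genes tested). The unadjusted p-value was under 0.05 for 370 higher genes (2.29%) and 166 lower genes (1.03%), and the groups did not overlap for 640 higher (3.96%) and 740 lower genes (4.58%). Without WT APAP replicate 1, 7 of 16579 genes passed (0.0422%), 4 of them higher. The unadjusted p-value was then under 0.05 for 313 higher (1.89%) and 211 lower genes (1.27%), and with only 2 WT livers left the groups did not overlap for 1372 higher (8.28%) and 1341 lower genes (8.09%). The number of genes at an unadjusted p-value under 0.05 depended on which liver was left out. It was 536 with all 6, and nearly the same without WT APAP replicate 1 (524) or KO APAP replicate 2 (534). It was 1267 without WT APAP replicate 2, 903 without WT APAP replicate 3, 314 without KO APAP replicate 1 and 346 without KO APAP replicate 3. With quantile-normalized TPM values and limma, 2 genes were higher and 6 lower.

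The 5 called genes were either on or nearly off in each liver. *Gdpd3* (gene ID 68616, chromosome 7 from 126766414 to 126775645 of GRCm38), a lysophospholipase D of the glycerophosphodiester phosphodiesterase family, had 1571, 1209 and 1045 counts in the WT APAP livers and 7, 12 and 12 in those labelled KO, a log2 fold change of 7.03 (WT over KO label here and below, SE 0.40, edgeR's adjusted p = 0.00178), and it passed in each of the 6 fits that left out 1 liver. None of the 5 genes was called when all 12 livers shared 1 fit, and with at least 10 counts required in every APAP liver *Gdpd3* was not tested and *Rpl34-ps1* alone was called. *Gm10167*, a pseudogene on chromosome 5, was also high in WT livers, at 117, 230 and 234 counts against 3, 4 and 7. *Rpl34-ps1* on chromosome 6, named as a pseudogene of the ribosomal protein gene *Rpl34*, went the other way with 41, 18 and 33 counts against 1634, 1904 and 1927, as did *Gm10154*, a pseudogene on chromosome 4, with 9, 1 and 4 against 550, 672 and 676. *AY036118*, a noncoding RNA on chromosome 17, was at 0 counts in all 3 WT APAP livers, with 145, 204 and 172 in those labelled KO, at least 46.8-fold lower when each WT liver is set at 3 counts, the limit that a count of 0 allows. How many of the 6 fits with 1 liver left out called them differed: 5 for *Rpl34-ps1* (lost without WT APAP replicate 3), 3 each for *Gm10167* and *Gm10154* (lost without WT APAP replicate 3, KO APAP replicate 1 or KO APAP replicate 2) and 2 for *AY036118* (lost without WT APAP replicate 3 or any 1 of the KO APAP livers). Reads on these pseudogenes can also come from near-identical copies, so their counts are uncertain.

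The same genes did not follow the genotype label in the vehicle livers. *Gdpd3* had 1122, 18 and 11 counts in the WT vehicle livers and 15, 10 and 11 in those labelled KO, so that 1 WT liver was on and 2 were off. *Rpl34-ps1* had 16, 18 and 1298 and 19, 1365 and 1910, on in 1 of 3 WT and in 2 of 3 livers labelled KO, and *Gm10154* was on in the same 3 livers (1, 1 and 456 and 2, 482 and 669 counts). *AY036118* was on only in WT vehicle replicates 2 and 3 (0, 95 and 172 counts) and at 0 in all 3 vehicle livers labelled KO, the reverse of the APAP livers. *Gm10167* was on in WT vehicle replicate 1 alone (82, 6 and 3 against 2, 2 and 2 counts). Livers of the same label and treatment were thus on and off in each of the 5 genes.

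**Figure D1:**
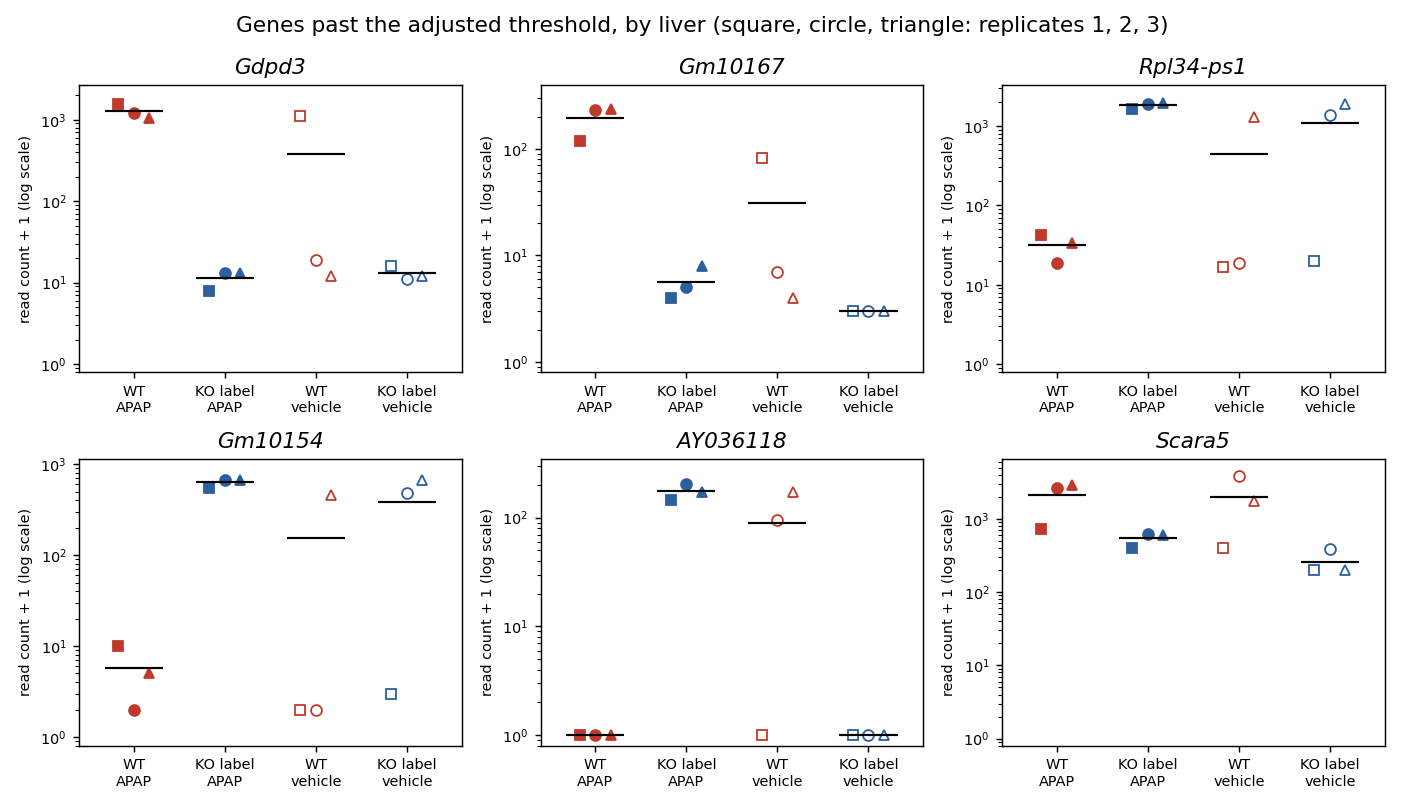
Read counts plus 1 on a log axis for the 5 genes called between the APAP groups and for *Scara5*, called without WT APAP replicate 1, with 1 point per liver and the mean as a line. In the APAP groups the points of WT and KO label are far apart for the first 5 genes, and in the vehicle groups livers of 1 label lie at both levels for *Gdpd3*, *Rpl34-ps1* and *Gm10154*.

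Leaving out WT APAP replicate 1 added 2 genes. *Scara5* (gene ID 71145, chromosome 14 from 65666403 to 65764826 of GRCm38), a ferritin receptor, was at 14.1, 35.6 and 46.1 CPM in the WT livers and 6.83, 9.92 and 8.64 CPM in those labelled KO. Its log2 fold change was 1.92 (SE 0.39) with all 6 livers and 2.27 (SE 0.20, edgeR's adjusted p = 0.0311) without that liver, and the groups did not overlap in either case. It was also higher in every WT vehicle liver than in any vehicle liver labelled KO (7.56, 81.5 and 34.5 against 3.34, 7.48 and 4.33 CPM). *Peg3* on chromosome 7, a paternally expressed zinc finger gene, was at 6.39, 51.7 and 41.1 CPM against 14.1, 11.1 and 13.3 CPM, below the KO label range in the omitted liver and above it in the other 2, so the log2 fold change moved from 1.37 to 1.85 (adjusted p = 0.0324).

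None of the 205 hepatocyte genes, all of which were tested, was called by edgeR, with or without WT APAP replicate 1, nor by DESeq2 or limma with all 6 livers. The unadjusted p-value was under 0.05 for 9 higher and 3 lower of the 205 (all genes tested, 2.29% and 1.03%), and for 8 and 4 without that liver. In all, 131 had a positive and 74 a negative log2 fold change, with a median of 0.12, or 0.08 without WT APAP replicate 1, against 0.02 and 0.00 over all genes tested. On the quantile-normalized TPM scale the median of the hepatocyte genes was negative (-0.07), so the direction rested on the scaling.

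No gene that activates or detoxifies APAP was called between the labels. *Cyp2e1*, the main activating cytochrome, was at 3482, 3326 and 4231 CPM in WT and 3478, 5317 and 3334 CPM in livers labelled KO, with a log2 fold change of -0.12 (SE 0.25), and *Cyp1a2*, another activating cytochrome, was at 94.4, 239 and 136 against 149, 132 and 108 CPM. In both genes the groups overlapped, and the 95% interval of the difference, computed from the edgeR fit, ran from -0.71 to 0.46 log2 units for *Cyp2e1* and from -0.46 to 1.02 for *Cyp1a2*, so a difference within these bounds could not be told from none with 3 livers a group. Of the 17 genes of APAP metabolism, 8 had positive and 9 negative fold changes (median -0.04, -0.06 without WT APAP replicate 1). *Gstp1*, a glutathione S-transferase, was the only one with an unadjusted p-value under 0.05. It was at 2692, 1253 and 1355 CPM against 1070, 1065 and 1054 CPM, with WT APAP replicate 1 far above the other livers and with reads that its near-identical neighbour *Gstp2* can share, and its log2 fold change was 0.76 (SE 0.32, unadjusted p-value of 0.0465) with that liver and 0.29 (SE 0.14, 0.0770) without it. Without that liver, *Cyp3a13*, a cytochrome P450 of the CYP3A family, took its place (0.42, SE 0.14, unadjusted p-value of 0.0178).

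Among zonation genes, 1 of 21 pericentral and 1 of 17 periportal genes reached an unadjusted p-value under 0.05, both higher in WT livers. Over all genes tested, 2.29% were higher at that level. *Glul* (glutamine synthetase), a marker of the hepatocytes next to the central vein, where APAP necrosis starts, was at 62.7, 185 and 185 CPM in WT livers and 125, 191 and 67.0 CPM in livers labelled KO. In every APAP liver this was below the lowest vehicle liver (495 CPM). The 21 pericentral genes had a median log2 fold change of 0.09, and of 0.36 without WT APAP replicate 1, where 17 of the 21 were lower than in another WT liver, and it was negative without KO APAP replicate 3 (-0.18). *Nkd1*, a feedback inhibitor of Wnt signaling, was the pericentral one, at 5.04, 4.21 and 3.18 CPM against 1.90, 2.78 and 2.08 CPM (log2 fold change 0.90, SE 0.29, unadjusted p-value of 0.0145, and 0.71 without that liver). The periportal one was *Ctsc* (cathepsin C), at 71.8, 63.7 and 39.9 against 43.1, 38.7 and 39.0 CPM (0.56, SE 0.24, unadjusted p-value of 0.0455), and 15 of the 17 periportal genes had positive fold changes (median 0.24, 0.15 without that liver). The urea cycle genes *Cps1* (-0.05, SE 0.22) and *Arg1* (0.28, SE 0.22) overlapped between the labels. All 23 genes of secreted proteins and hepatocyte enzymes had positive fold changes (median 0.29), but 16 of them peaked in WT APAP replicate 1, 16 were positive without it (median 0.09), and the median was negative on the quantile-normalized TPM scale (-0.09 at the lowest). Of 17 hepatocyte transcription factors 6 had positive fold changes (median -0.04), but 14 had without WT APAP replicate 1 (median 0.13), and *Foxa3*, a forkhead factor, was the one with an unadjusted p-value under 0.05, at 38.7, 54.7 and 49.4 against 69.9, 53.8 and 83.7 CPM (-0.53, SE 0.21, 0.0353, and -0.41 without that liver). *Fabp1*, which encodes the liver fatty acid-binding protein, was among the secreted protein and enzyme genes and was at 8664, 1540 and 4308 CPM in WT livers and 2201, 2557 and 2380 CPM in those labelled KO, and its log2 fold change was 1.06 with and 0.29 without that liver.

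Stress response genes of hepatocytes gave few low p-values. Among 15 targets of NRF2, the transcription factor of the antioxidant response, *Srxn1* (sulfiredoxin) was the only one with an unadjusted p-value under 0.05. It was at 403, 466 and 610.2 CPM in WT livers and 1000, 521 and 1010 CPM in those labelled KO, lower in WT by a log2 fold change of -0.76 (SE 0.30, unadjusted p-value of 0.0325), although KO APAP replicate 2 lay within the WT range. All 6 values were far above those of the vehicle livers (24.6 to 36.9 CPM). *Gclc*, the catalytic subunit of the first enzyme of glutathione synthesis, had a log2 fold change of -0.36 (SE 0.25). The 20 genes of the endoplasmic reticulum and integrated stress response had a median of -0.05, and *Ddit3* (CHOP), at 219, 226 and 299.7 against 109.9, 236 and 169 CPM, overlapped. *Gdf15*, a secreted stress cytokine, was at 260.3, 20.9 and 77.7 CPM against 22.5, 59.5 and 30.1 CPM, and its log2 fold change went from 1.72 to 0.39 without WT APAP replicate 1. Among 16 immediate early genes (median 0.50, 0.17 without that liver), the 1 gene with an unadjusted p-value under 0.05, *Klf4*, a zinc finger transcription factor, was non-overlapping at 4.82, 2.61 and 4.40 against 2.26, 2.48 and 1.94 CPM (0.84, SE 0.31, unadjusted p-value of 0.0253), while *Fos*, a subunit of AP-1, ranged from 22.2 CPM in KO APAP replicate 1 to 264 CPM in WT APAP replicate 1.

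Acute phase genes, which hepatocytes switch on in response to inflammatory cytokines, were the hepatocyte list with the most unadjusted p-values under 0.05. Of 17 tested, 15 had positive fold changes (median 0.51, 0.46 without WT APAP replicate 1) and 4 reached an unadjusted p-value under 0.05, or 5 without that liver. Over all genes tested, 2.29% were higher at that level, or 1.89% without that liver. *Hp* (haptoglobin, which binds free hemoglobin) was at 3309, 3499 and 4183 CPM in the WT livers and 2279, 2248 and 2796 CPM in those labelled KO. The groups did not overlap, and the log2 fold change was 0.60 (SE 0.21, unadjusted p-value of 0.0192) with all livers and 0.65 (SE 0.17, 0.00693) without WT APAP replicate 1. *Orm1*, the gene of the plasma protein orosomucoid, was at 641, 455 and 635 against 249, 370.3 and 487 CPM and overlapped (0.67, SE 0.28, unadjusted p-value of 0.0438, and 0.56, SE 0.29, without that liver). The serum amyloid A genes had larger fold changes that came from a single liver. *Saa1* was at 46.3, 101 and 696 CPM against 32.9, 105 and 33.6 CPM, so that only WT APAP replicate 3 exceeded the livers labelled KO, and its log2 fold change of 2.30 (SE 0.96) became 0.38 without that liver. The same held for *Saa2* (2.87 with and 0.26 without WT APAP replicate 3). Acute phase genes also varied among the vehicle livers, where WT vehicle replicate 2 had 4797 CPM of *Saa1* against 6.80 to 86.6 CPM in the other 5. Reads of *Saa1* and *Saa2* can be shared between these near-identical genes. On the quantile-normalized TPM scale the median of the list was as low as 0.06.

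Genes of fasting and fatty acid oxidation, controlled by PPARα, had a median of -0.04, which was positive (0.12) without WT APAP replicate 2. Of 15 tested, 5 had positive and 10 negative fold changes, and 3 positive and 12 negative without WT APAP replicate 1 (median -0.16). In that fit 4 negative ones reached an unadjusted p-value under 0.05 (all genes, 1.27% lower). *Ehhadh*, the bifunctional enzyme of peroxisomal β-oxidation, was at 625, 426 and 600.2 CPM in WT and 735, 857 and 958 CPM in livers labelled KO without overlap, a log2 fold change of -0.61 (SE 0.23, unadjusted p-value of 0.0276), or -0.73 (SE 0.21, 0.0101) without that liver. *Cyp4a14*, a fatty acid ω-hydroxylase, was at 2926, 1987 and 2409 against 3194, 3518 and 3328 CPM, again without overlap (-0.44, SE 0.22, and -0.61, SE 0.16, without that liver). *Acot1*, an acyl-CoA thioesterase, and *Cyp4a10* were the other genes below 0.05 without WT APAP replicate 1 (-0.55 and -0.43), but with all 6 livers *Cyp4a10* overlapped (-0.15, SE 0.27). The medians of the 14 clock genes (0.05) and of the 17 genes of lipid and cholesterol synthesis (0.08) changed sign in some alternatives, down to -0.02 and -0.15, and *Dbp*, a clock output transcription factor, was the clock gene with the smallest p-value (0.80, SE 0.28, unadjusted p-value of 0.0207).

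**Figure D2:**
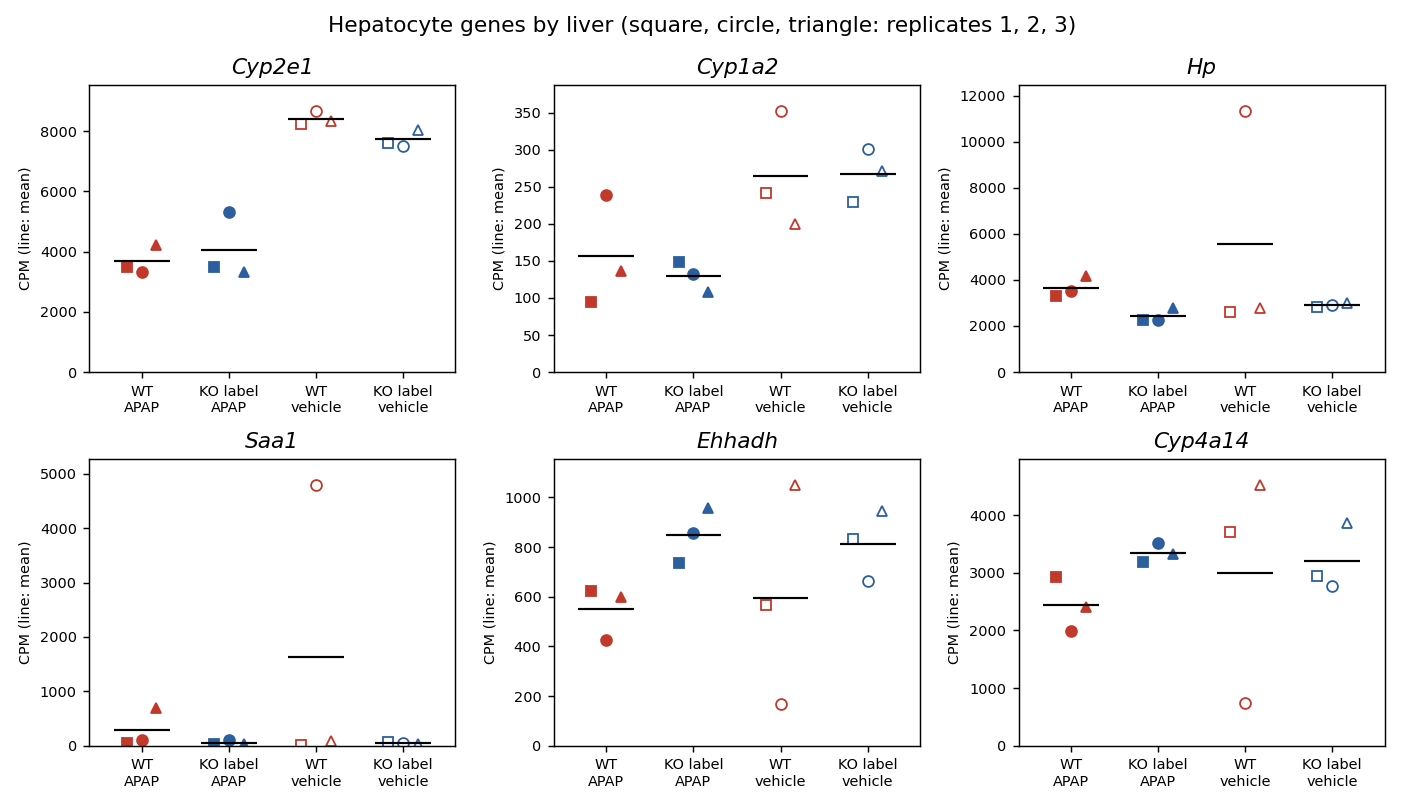
CPM of 6 hepatocyte genes by liver, with 1 point per liver and the mean of each group as a line. *Hp* lies higher and *Ehhadh* and *Cyp4a14* lower in the 3 WT APAP livers than in any APAP liver labelled KO, *Cyp2e1* and *Cyp1a2* overlap, and *Saa1* is high in 1 WT liver of each treatment.

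**Figure D3:**
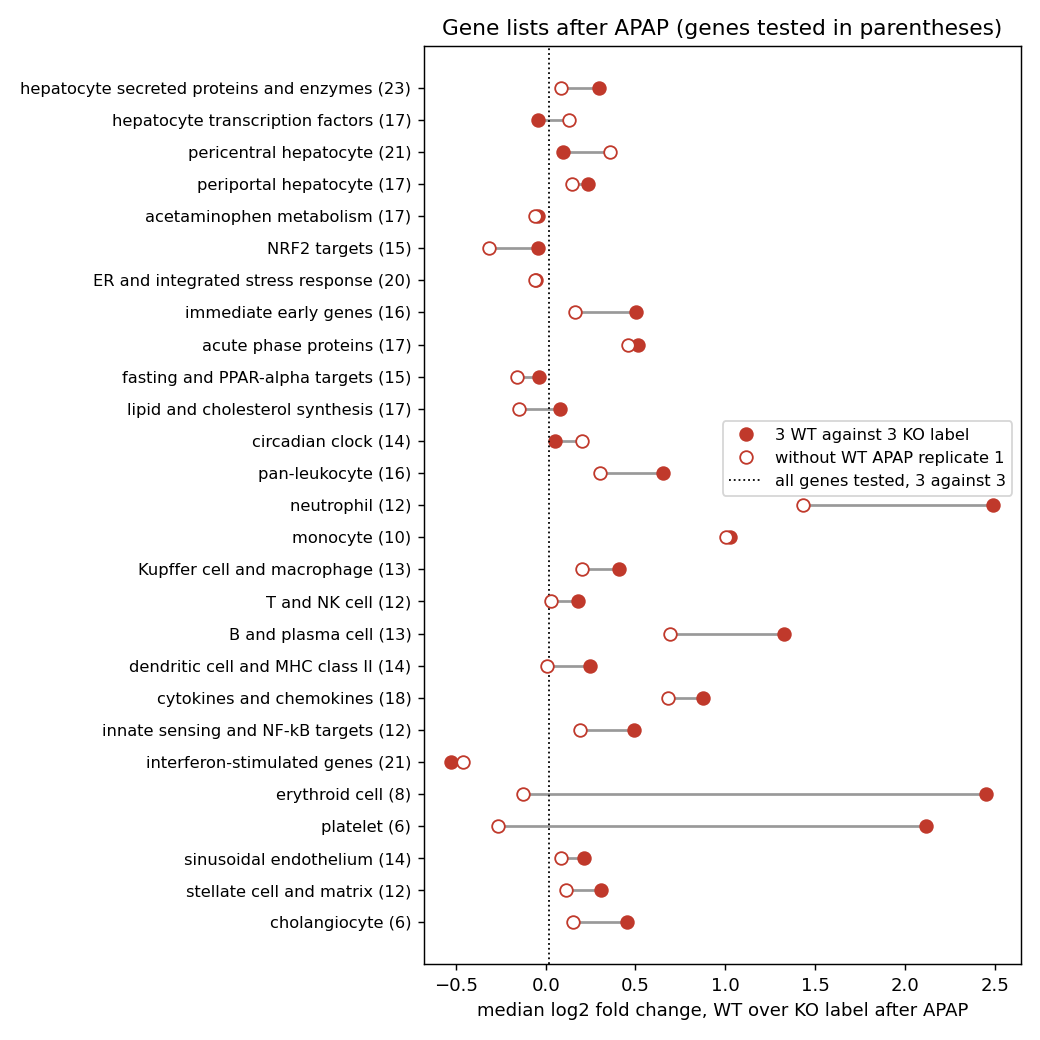
Median log2 fold change of each list, WT over KO label after APAP, with all 6 livers (filled) and without WT APAP replicate 1 (open), the dotted line being the median of all genes tested. The erythroid and platelet medians go from 2.45 and 2.12 to -0.13 and -0.27 without that liver, the neutrophil median from 2.49 to 1.43, and the monocyte and interferon-stimulated medians are 1.02 and -0.53 with and 1.01 and -0.46 without it.

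Most immune lists leaned towards higher values in WT livers, while the T and NK cell genes were split and the interferon-stimulated genes leaned lower. None of their 168 genes was called by edgeR with or without WT APAP replicate 1, nor by limma with all 6 livers, and DESeq2 called *Tlr2* alone. Of the 168 genes, 141 passed the filter on low counts, and the 27 that did not included 5 without a count in any of the 6 livers. Among the tested genes outside the interferon list, 106 of 120 had positive fold changes, 28 were higher and 0 lower at an unadjusted p-value under 0.05, against 2.29% higher and 1.03% lower of all genes tested. The groups did not overlap for 22 higher and 0 lower genes, against 3.96% and 4.58% of all genes. Their median was 0.65, or 0.38 without WT APAP replicate 1, when 16 were higher and 1 lower at that level (all genes, 1.89% and 1.27%) and 28 higher and 3 lower without overlap (all genes, 8.28% and 8.09%). A gene could pass the filter on low counts through the group in which it was high, as *Chil3* and *Retnlg* did in WT livers, so counts and medians over the genes tested lean by construction and are a description only. On the quantile-normalized TPM scale their median was as low as 0.27. WT APAP replicate 1, in which hemoglobin counts were high, held the highest WT value in 81 of the 120 genes, and WT APAP replicate 3 in 6. The summed level of the 147 listed genes outside the interferon list overlapped between the labels. It was 1472, 1046 and 841 CPM in WT livers and 760, 927 and 893 CPM in those labelled KO. In whole liver, fewer cells of a type and less RNA per cell cannot be told apart.

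Neutrophil transcripts had the largest median of the immune lists. All 12 tested of 17 had positive fold changes, 11 at an unadjusted p-value under 0.05 and 6 without overlap (median 2.49, and 1.05 on the log2(TPM + 1) scale). Of all genes tested, 2.29% were higher at that level and 3.96% higher without overlap. The other 5 failed the filter on low counts. A gene can pass that filter through the group where it is high, so this tally leans by construction. Without WT APAP replicate 1 all 12 were still positive, 4 were below 0.05 (all genes, 1.89% higher) and the median was 1.43. *S100a9*, a subunit of the calcium-binding protein calprotectin, was at 66.1, 3.45 and 9.20 CPM in WT livers and 0.748, 0.286 and 2.44 CPM in those labelled KO. The lowest WT value was above the highest of the KO label, and the log2 fold change was 2.44 (SE 0.80, unadjusted p-value of 0.0187) without WT APAP replicate 1. *Cxcr2*, the receptor of the neutrophil-attracting chemokines, was at 3.75, 0.753 and 1.62 against 0.191, 0.254 and 0.603 CPM, non-overlapping too (2.56, SE 0.69, and 1.74, SE 0.58, without that liver). *S100a8*, the other calprotectin subunit, gave 31.2, 1.67 and 3.73 against 0.661, 0 and 1.12 CPM (4.40, SE 1.38, and 2.17, SE 1.09, without that liver). These levels were low: *Retnlg*, which is expressed in neutrophils, had 678, 74 and 108 counts against 8, 0 and 60, and *Ly6g*, the surface marker that defines mouse neutrophils, was at 5, 0 and 3 and 0, 0 and 3 counts and was not tested. The summed level of the 17 neutrophil genes was 159, 24.9 and 31.3 CPM in the WT livers and 10.4, 5.13 and 17.4 CPM in those labelled KO, without overlap. With vehicle it was 6.73, 25.0 and 4.04 CPM and 7.34, 5.61 and 5.99 CPM, so that WT vehicle replicate 2 reached the level of WT APAP replicate 2.

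The monocyte median was nearly the same with and without WT APAP replicate 1. Of 10 tested, 9 had positive fold changes and 4 were higher at an unadjusted p-value under 0.05 (all genes tested, 2.29%), with a median of 1.02. Without that liver 8 of 11 were positive and again 4 were below 0.05 (all genes, 1.89%), with a median of 1.01. On the quantile-normalized TPM scale the median was as low as 0.22. As *F13a1* and *Chil3* passed the filter on low counts through the WT livers, these tallies lean by construction, and the p-values of these genes are a description only. *F13a1*, the A chain of coagulation factor XIII, made by monocytes, had 34, 46 and 27 counts in the WT livers and 4, 11 and 5 in those labelled KO, without overlap (2.43, SE 0.54, unadjusted p-value of 0.00191, and 2.29, SE 0.59, 0.00612 without that liver). *Chil3*, a chitinase-like protein of inflammatory monocytes, had 40, 57 and 18 counts against 0, 0 and 9, again without overlap. The defining monocyte genes differed less than *F13a1* and *Chil3*. *Ccr2*, the receptor that draws monocytes into tissue, had 30, 102 and 33 counts against 30, 25 and 25. In scaled CPM *Ccr2* did not overlap, but WT APAP replicate 3 lay only just above KO APAP replicate 1 (0.97, SE 0.48, and 1.15 without WT APAP replicate 1). *Ly6c2* had 21, 34 and 13 against 12, 25 and 14 counts (0.42, SE 0.52) with overlap.

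Resident macrophages showed smaller differences. All 13 Kupffer cell and macrophage genes had positive fold changes (median 0.41), none below an unadjusted 0.05, and the median was 0.20 without WT APAP replicate 1. *Clec4f*, the lectin that defines Kupffer cells, was at 74.1, 69.1 and 29.6 CPM against 60.7, 33.5 and 46.4 CPM (0.32, SE 0.36), with WT APAP replicate 3 the lowest of the 6 livers. *Adgre1* (F4/80) also overlapped (0.49, SE 0.44). *Marco*, a scavenger receptor, was the one gene below an unadjusted 0.05 without WT APAP replicate 1, at 2.13, 3.13 and 3.58 against 2.45, 1.97 and 1.62 CPM (0.73, SE 0.26, 0.0277). All 16 pan-leukocyte genes had positive fold changes as well (median 0.66, 0.30 without that liver and 0.42 on the log2(TPM + 1) scale). *Ptprc* (CD45), carried by all leukocytes, was at 7.33, 6.26 and 1.67 CPM against 3.22, 2.70 and 3.50 CPM, and WT APAP replicate 3 was again below every liver labelled KO. *Tyrobp*, the adaptor DAP12, did not overlap (17.9, 7.53 and 6.02 against 5.81, 4.56 and 5.08 CPM, 1.05, SE 0.41, and 0.39, SE 0.20, without WT APAP replicate 1).

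Among lymphocyte lists, B cell genes leaned towards WT livers and T cell genes were split. Of 13 tested B and plasma cell genes 12 had positive fold changes and 4 were below an unadjusted 0.05 (median 1.33, and 0.23 on the log2(TPM + 1) scale), against 11 and 3 without WT APAP replicate 1 (median 0.69). Among all genes tested, 2.29% were higher at that level, and 1.89% without that liver. As *Iglc2* and *Ighd* passed the filter on low counts through the WT livers, these tallies lean by construction. *Ighm*, the heavy chain of IgM, was at 14.9, 9.50 and 4.21 CPM in WT livers and 3.39, 2.86 and 3.12 CPM in those labelled KO, without overlap (1.63, SE 0.42, unadjusted p-value of 0.00473, and 1.13, SE 0.34, 0.0123 without that liver). The light chain gene *Iglc2* had 43, 17 and 13 counts against 4, 4 and 5, and *Ighd*, the heavy chain of IgD, 40, 37 and 15 against 10, 5 and 9. *Cd79a*, part of the B cell receptor, overlapped (95, 58 and 16 against 19, 15 and 27 counts), as WT APAP replicate 3 lay with the livers labelled KO. Of 12 tested T and NK cell genes 6 had positive and 6 negative fold changes and none was below an unadjusted 0.05, and *Cd3e*, a chain of the T cell receptor complex, was at 15, 13 and 8 against 13, 16 and 12 counts. Without WT APAP replicate 1, *Il7r*, the interleukin-7 receptor, was lower in WT livers (-1.74, SE 0.60, unadjusted p-value of 0.0229).

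Genes of dendritic cells and MHC class II had a median of 0.25 that was 0.01 without WT APAP replicate 1. *Siglech*, a marker of plasmacytoid dendritic cells, was at 1.95, 0.658 and 0.620 against 0.383, 0.270 and 0.603 CPM (1.38, SE 0.58), where WT APAP replicate 3 lay just above KO APAP replicate 3. In scaled CPM the groups did not overlap for *Itgax* (CD11c) either, whereas its unscaled counts overlapped, at 30, 74 and 36 against 17, 34 and 24 (0.88, SE 0.43). *H2-Ab1*, a chain of an MHC class II molecule, overlapped (0.20, SE 0.48).

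Cytokine and chemokine genes also leaned towards WT livers. Of 18 tested, 15 had positive fold changes (median 0.88, and 0.29 on the log2(TPM + 1) scale), 5 below an unadjusted 0.05, and without WT APAP replicate 1 13 of 17 were positive (median 0.68), 2 below it. The share of all genes tested that was higher at that level was 2.29%, and 1.89% without that liver. *Il1a*, the gene of the alarm cytokine interleukin-1α, was at 17.8, 3.70 and 3.58 CPM in WT livers and 2.40, 2.16 and 1.68 CPM in those labelled KO. The groups did not overlap even without WT APAP replicate 1, which was far above the other livers, and the log2 fold change went from 2.04 (SE 0.64, unadjusted p-value of 0.0129) to 0.80 (SE 0.25, 0.0141). *Ccl2*, which attracts monocytes, was at 2.25, 3.57 and 1.03 against 0.817, 0.366 and 1.08 CPM, with WT APAP replicate 3 just inside the KO label range (1.61, SE 0.55, and 1.61 without WT APAP replicate 1). *Il1b*, the gene of interleukin-1β, was at 13.1, 3.56 and 0.620 against 0.643, 0.223 and 0.962 CPM and overlapped through WT APAP replicate 3 (3.27, SE 1.02, and 1.77, SE 0.79, without WT APAP replicate 1). *Cxcl1*, a chemokine for neutrophils, leaned the other way and overlapped (53.6, 25.9 and 85.7 against 33.9, 88.6 and 104 CPM, -0.43, SE 0.50). *Tnf* had 0, 56 and 10 counts against 6, 9 and 17, and *Il6* had 23, 7 and 0 against 0 in each liver labelled KO and was too low to be tested.

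The 12 genes of innate sensing and NF-κB targets had a median of 0.49, 0.19 without WT APAP replicate 1 and 0.22 on the log2(TPM + 1) scale. Among them *Tlr2* (gene ID 24088, chromosome 3 from 83836272 to 83841824 of GRCm38), a receptor for bacterial lipoproteins, had the smallest p-value of all immune genes. It was at 2.48, 3.02 and 2.91 CPM in the WT livers and 0.904, 1.11 and 0.732 CPM in those labelled KO. The WT livers were close to each other and all above the KO label, and the log2 fold change was 1.62 (SE 0.29, unadjusted p-value of 0.000523, edgeR's adjusted p = 0.769) with all livers, 1.69 (SE 0.28, adjusted p = 0.486) without WT APAP replicate 1, and between 1.48 and 1.79 with any 1 liver left out. In the vehicle livers the labels overlapped (1.22, 2.54 and 0.959 and 2.10, 0.799 and 1.08 CPM). *Icam1*, an adhesion molecule for leukocytes, was below an unadjusted 0.05 only without that liver (0.62, SE 0.21, 0.0226, against 0.48, SE 0.23).

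**Figure D4:**
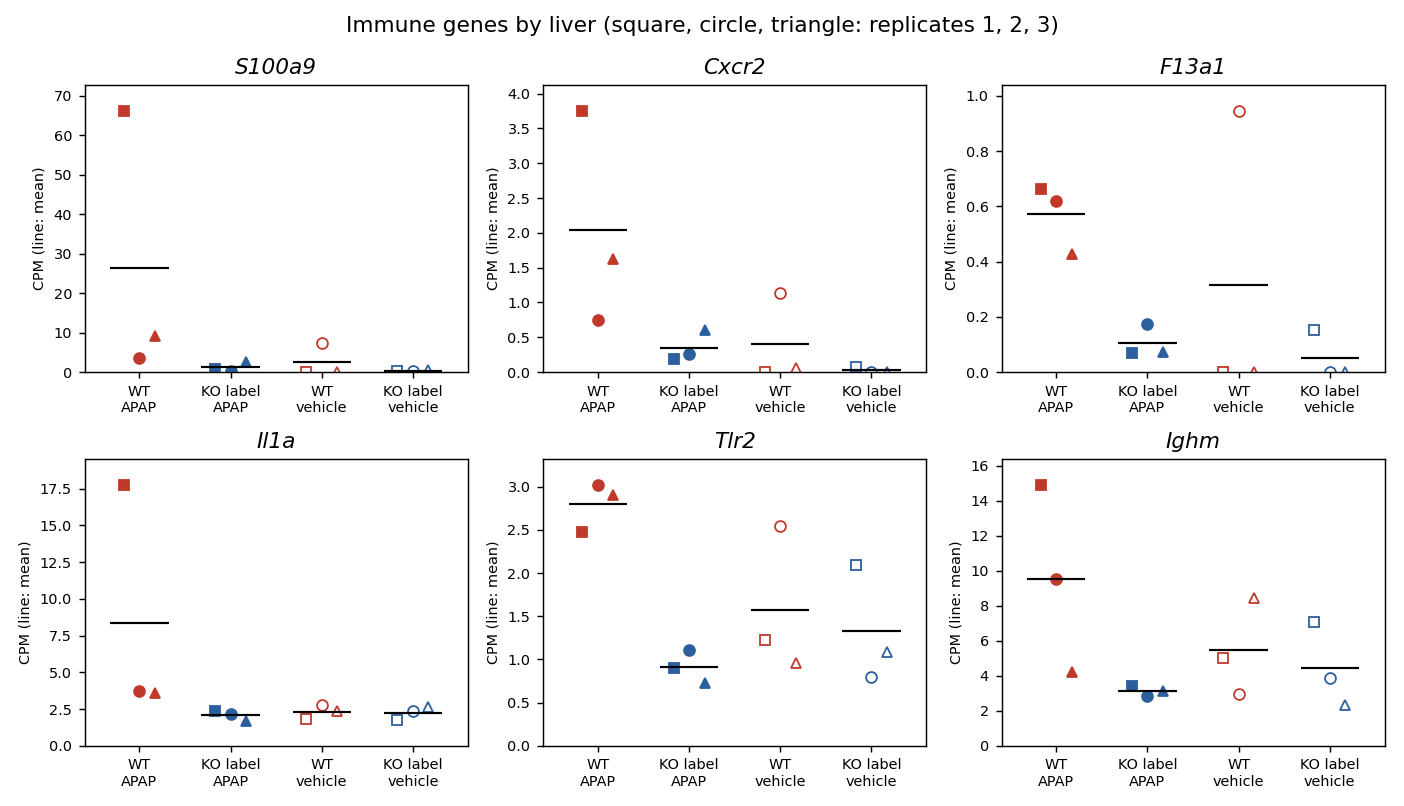
CPM of 6 immune genes by liver, with 1 point per liver and the mean of each group as a line. In all 6 panels the 3 WT APAP livers lie above the 3 APAP livers labelled KO, WT APAP replicate 1 (square) is far the highest for *S100a9*, *Cxcr2* and *Il1a*, and it is the lowest WT APAP liver for *Tlr2*.

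The interferon-stimulated genes, which cells switch on when interferon binds its receptor, leaned towards the livers labelled KO, although none was called. Of 21 tested, 20 had negative fold changes (median -0.53), 7 of them below an unadjusted 0.05 (all genes tested, 1.03% lower) and 7 without overlap (all genes, 4.58%). Without WT APAP replicate 1, 18 were negative (median -0.46), 5 below 0.05 (all genes, 1.27%) and 8 without overlap (all genes, 8.09%, since 2 WT livers separate more easily than 3). The median lay between -0.71 and -0.42 with any 1 liver left out and was negative in all other alternatives. The interferon response elements of such genes carry the core letters GAAANNGAA, and RefSeq (GRCm38.p6) gave promoters for 16 of the 21 genes. On either strand these letters occurred in the 250 bases before the start of 10 of the 16, against 7.77% of the 11730 tested genes with a promoter of that length. A match describes the letters in this window and not a bound site. The promoters of 3 genes with low p-values are shown with the letters of each match, overlapping ones included, in capitals, so that the repeated copies before *Ifit1* and *Ifit3* can be compared with the single copy before *Rsad2*.

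*Ifit1* (chr19:34640639-34640888, plus strand): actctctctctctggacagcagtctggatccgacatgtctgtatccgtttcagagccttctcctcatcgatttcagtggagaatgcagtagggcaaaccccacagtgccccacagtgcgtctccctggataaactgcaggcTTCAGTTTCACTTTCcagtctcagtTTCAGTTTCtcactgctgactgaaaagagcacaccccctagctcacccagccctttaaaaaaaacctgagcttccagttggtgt
*Ifit3* (chr19:34583279-34583528, plus strand): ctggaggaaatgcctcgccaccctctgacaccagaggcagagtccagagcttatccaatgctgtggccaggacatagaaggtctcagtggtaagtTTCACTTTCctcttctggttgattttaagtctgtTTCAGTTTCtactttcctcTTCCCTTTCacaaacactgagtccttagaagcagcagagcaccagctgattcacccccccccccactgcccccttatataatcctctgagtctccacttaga
*Rsad2* (chr12:26456453-26456702, minus strand): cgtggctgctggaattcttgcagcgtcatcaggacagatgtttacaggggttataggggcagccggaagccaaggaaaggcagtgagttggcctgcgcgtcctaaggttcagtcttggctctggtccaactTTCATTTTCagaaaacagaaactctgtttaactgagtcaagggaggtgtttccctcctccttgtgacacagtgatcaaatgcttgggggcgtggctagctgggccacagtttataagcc

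*Usp18*, a protease that removes ISG15 and dampens interferon receptor signaling, had the smallest p-value of the list. It was at 6.43, 4.73 and 10.2 CPM in the WT livers and 16.0, 11.8 and 18.9 CPM in those labelled KO, all WT livers below all of the KO label, with a log2 fold change of -1.11 (SE 0.31, unadjusted p-value of 0.00705) and of -1.06 (SE 0.35) without WT APAP replicate 1. *Rsad2* (viperin, an antiviral enzyme) was at 10.9, 11.9 and 21.8 against 29.5, 25.0 and 32.8 CPM (-0.95, SE 0.27, and -0.79 without that liver). The RNA-binding antiviral proteins *Ifit3*, at 8.89, 6.05 and 9.22 against 11.9, 12.0 and 18.5 CPM, and *Ifit1*, at 3.89, 4.60 and 9.23 against 11.0, 10.9 and 11.1 CPM, did not overlap either (-0.79, SE 0.25, and -0.88, SE 0.32). *Irf9*, a transcription factor of the interferon response, which like *Ifit1* was chosen for naming after its values were seen, was at 18.9, 31.8 and 40.4 against 52.2, 42.0 and 50.4 CPM (-0.66, SE 0.26). *Isg15*, the ubiquitin-like protein that USP18 removes, overlapped (12.8, 5.16 and 11.9 against 9.60, 9.31 and 13.1 CPM, -0.07, SE 0.34). WT APAP replicate 3 was the highest WT liver for 14 of the 21 genes. The vehicle livers, which share no animal with the APAP livers, lay on the same side: *Usp18* was at 4.83, 4.49 and 7.55 CPM in WT and 9.22, 19.0 and 27.2 CPM under the KO label, and *Rsad2* at 7.31, 5.04 and 4.84 and 8.70, 9.64 and 16.0. The summed level of the 21 genes was 398, 395 and 554 CPM in WT and 674, 499.8 and 933 CPM in livers labelled KO after APAP, and 358, 568 and 415 and 652, 557 and 797 CPM with vehicle, so that the sums overlapped under both treatments.

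**Figure D5:**
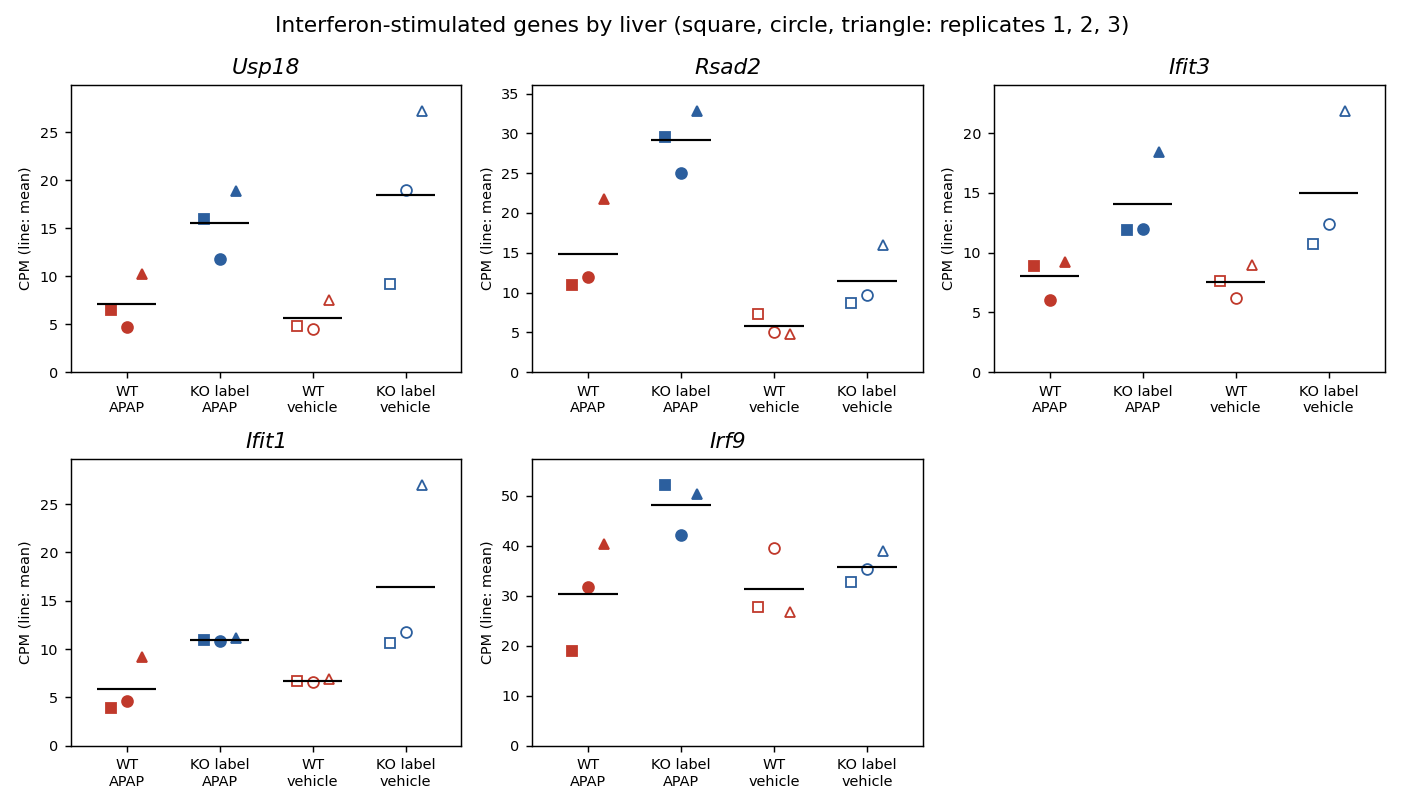
CPM of 5 interferon-stimulated genes by liver, with 1 point per liver and the mean of each group as a line. The 3 WT APAP livers lie below the 3 APAP livers labelled KO in every panel, and the vehicle livers are ordered the same way without overlap for all but *Irf9*.

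The erythroid and platelet medians were positive only with WT APAP replicate 1. Of 8 tested erythroid genes, 7 had positive fold changes with it (median 2.45) and 3 without it (median -0.13). *Hba-a1*, a hemoglobin chain, was at 4653, 72.9 and 54.8 CPM in WT livers and 44.4, 79.8 and 97.9 CPM in those labelled KO, while *Alas2*, the erythroid enzyme of heme synthesis, was at 157, 84.8 and 81.9 against 70.6, 71.3 and 64.0 CPM. The platelet gene *Pf4* (platelet factor 4) was at 6.35, 0.349 and 0.556 against 0.487, 0.191 and 0.459 CPM, and the platelet median went from 2.12 to -0.27 without that liver. The summed neutrophil, platelet and B cell levels were each highest in the same liver (159, 39.8 and 35.0 CPM), and the part that blood in this sample had in them was not tested. The medians of sinusoidal endothelium (0.22), stellate cells and matrix (0.31) and cholangiocytes (0.45) were positive and smaller without it (0.09, 0.11 and 0.15), with no gene below an unadjusted 0.05.

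Outside the lists, a few genes whose mean log2 CPM was 1 or more had large differences without overlap and without being called by edgeR. *Mup5*, a major urinary protein that the male liver secretes, was at 574, 211 and 273 CPM in WT livers and 61.0, 109 and 45.7 CPM in those labelled KO (2.32, SE 0.47, and 1.74, SE 0.35, without WT APAP replicate 1), though reads of this family can be shared between its near-identical members. DESeq2's Wald test did call *Mup5*. Of the 21 higher and 8 lower genes that this test called with all 6 livers, only *Tlr2* was in a list. *Moxd1*, a monooxygenase of the DBH family, had 79, 713 and 23 counts in WT livers and 0, 0 and 6 in those labelled KO, so its level in the WT livers came mostly from WT APAP replicate 2. *Lpin1*, the phosphatidate phosphatase lipin 1, went the other way, at 161, 131 and 276 against 468, 489 and 330.3 CPM (-1.17, SE 0.31, and -1.08, SE 0.34). *Dgkh*, a diacylglycerol kinase, was at 6.04, 2.43 and 3.05 against 9.58, 7.22 and 10.3 CPM (-1.21, SE 0.36), and its difference was larger without that liver (-1.73, SE 0.23, unadjusted p-value of 0.000161). *Dgkh* was also lower in every WT vehicle liver than in any vehicle liver labelled KO (1.62, 1.51 and 2.04 against 5.01, 5.53 and 5.20 CPM). *Hmga1*, a chromatin architecture protein, was at 16.4, 26.0 and 26.8 against 52.9, 34.0 and 53.3 CPM (-1.01, SE 0.25), and *Tlr12*, a Toll-like receptor, at 1.31, 0.981 and 1.76 against 2.49, 4.39 and 2.79 CPM (-1.24, SE 0.35).

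Whether the difference between the labels after APAP was another than with vehicle was tested as the genotype by treatment interaction over all 12 livers. In edgeR's test 0 of 16509 genes passed the adjusted threshold (0%), 848 had an unadjusted p-value under 0.05 (5.14%), and DESeq2 called 9. For *Tlr2* and *Usp18* the interaction was 1.38 (SE 0.58, unadjusted p-value of 0.0368) and 0.60 (SE 0.54, 0.293) log2 units.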

How the data were processed

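RNA-seq libraries of 12 mouse livers (TruSeq Stranded mRNA, poly-A selected, NovaSeq 6000, paired-end) were analysed from gene tables in which the authors deposited read counts and TPM per liver. The submitters' processing notes name FastQC 0.11.7, Trimmomatic 0.38, HISAT2 2.1.0, Bowtie2 2.3.4.1 and StringTie 2.1.3b and the build mm10 (GRCm38). Reads of near-identical genes can be split between them in such counts. Whether counting used strand was not given in the sources used here. The FPKM columns were not used, and 0 columns of counts or TPM lacked a sample. Groups and replicate numbers were taken from the labels, which do not say how the mice were caged or batched.

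Counts of the 6 APAP livers were tested with edgeR 4.0.16 (R 4.3.3), with TMM scaling, filterByExpr, the quasi-likelihood F test and Benjamini-Hochberg adjustment over all genes tested at a threshold of 0.05. The SE is the absolute log2 fold change divided by the square root of F, and each 95% interval uses the degrees of freedom of the fit. The interaction was fitted on all 12 livers. CPM in the text were scaled by TMM over all 12 livers. Alternatives were DESeq2 1.42.0, its size factors, limma 3.58.1 on quantile-normalized log2(TPM + 1) and log2(TPM + 0.1), other filters, hemoglobin genes left out, edgeR's newer fit, all 12 livers in 1 fit, each liver left out, and a replicate block. The test was checked on simulated counts. The deviations of same-numbered WT and KO-label livers did not correlate positively (r of -0.28, -0.19 and -0.01). With so few livers in each group, these correlations cannot decide whether the numbers pair the livers. Every replicate pair differed beyond counting noise, so each library was counted once.

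The lists and members were chosen with earlier results of these data known. Of 429 listed symbols 428 were found in the table (transferrin as *Trf*), and single values of some of them are not reported here. The text names all genes past the adjusted threshold with all 6 livers or without WT APAP replicate 1 and, as needed to describe a list, genes among its 3 smallest p-values, well-known markers fixed for the lists, and genes among the 10 largest differences per direction without overlap among genes below 0.05 before adjustment whose mean log2 CPM was 1 or more. *Ifit1*, *Irf9* and *Cyp4a10* fell outside that rule and were named after their values were seen. Promoter sequences and gene positions come from RefSeq on GRCm38.p6. Transcript lengths (longest transcript of a gene) matched 92.9% of the genes tested.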

Additional observations from a re-analysis of the deposited data

Results flagged for a closer look

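After APAP the 3 WT livers lay above the 3 livers labelled KO for *Tyrobp* and *Itgax*, and with vehicle the 3 WT livers lay below. *Tyrobp*, the signaling adaptor DAP12 of myeloid and NK cells, was at 17.9, 7.53 and 6.02 against 5.81, 4.56 and 5.08 CPM after APAP and at 5.36, 5.44 and 4.00 against 8.18, 6.02 and 8.67 CPM with vehicle. Its genotype by treatment interaction was 1.66 log2 units (SE 0.49, unadjusted p-value of 0.00584, edgeR's adjusted p = 0.872). *Itgax*, the integrin CD11c of dendritic cells and macrophages, was at 0.586, 0.994 and 0.572 against 0.296, 0.540 and 0.345 CPM after APAP and at 0.338, 0.462 and 0.340 against 0.739, 0.974 and 0.464 CPM with vehicle, from 17 to 74 counts a liver. The vehicle groups of *Itgax* were separated only by 0.462 against 0.464 CPM, and its unscaled counts after APAP overlapped. The interaction of *Itgax* was 1.80 log2 units (SE 0.57, unadjusted p-value of 0.00856, edgeR's adjusted p = 0.872). Both genes were flagged from these same values, so their unadjusted p-values are a description only. Neither passed the adjusted threshold, so a difference between the treatments was not shown.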

How the results depend on the processing

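With all 6 livers 2 genes were called higher and 3 lower in WT, and these counts stayed within 1.5 times with DESeq2's size factors, without the hemoglobin genes, with edgeR's newer fit and with no filter on low counts. DESeq2's Wald test called 21 higher and 8 lower. Requiring 10 or more counts in each of the 6 livers left 0 higher and 1 lower (470 genes at an unadjusted p-value under 0.05), since genes near 0 in 1 group cannot pass it, and a fit of all 12 livers called 0 and 0 with edgeR (816 genes at that level). limma on log2(TPM + 1) and log2(TPM + 0.1) called 6 and 5 lower. With a replicate block 1 gene was called higher and 0 lower by edgeR (300 genes at that level), but whether the numbers pair the livers is not known. With 1 liver left out, 1 to 4 genes were called higher and 0 to 3 lower. The median log2 fold change of the hepatocyte lists, 0.12, lay between 0.07 and 0.18 with 1 liver left out and was -0.07 on both TPM scales (-0.070 and -0.074). That of the immune lists, 0.50, lay between 0.26 and 0.80, and was 0.20 on the log2(TPM + 1) scale. The interaction called 0 genes, 9 with DESeq2's Wald test, and 0 to 2 with 1 liver left out (1 without KO APAP replicate 1, 1 without KO APAP replicate 3 and 2 without WT vehicle replicate 1). Over the 80 named genes that were tested, 1267 values under alternatives changed sign in 24 cases, none of them in the 7 called genes. The causes were not tested unless stated.

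With 3 livers a group the p-values set the label difference against the spread among these animals alone, which edgeR estimates for each gene partly from other genes. Cage and batch are not given by the labels, and WT APAP replicate 1 differed from the others in hemoglobin and in transcript length.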
